A study of Mus musculus with 27 samples.

Results

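The genes described here are Itgax, Axl, Cd9, Csf1, Igf1, Spp1, Cst7, Lpl, Gpnmb and Atp6v0d2, 10 of the 31053 genes counted in single-nucleus RNA-seq of mouse hippocampus. They were chosen by name from the set of genes that microglia are known to switch on in neurodegeneration, often called disease-associated microglia genes, and all 10 were found in the count tables. No measured value entered that choice, although earlier results of these data were known when the set was drawn up. Levels are given as CPM, the unique molecular identifiers (UMIs) of a gene scaled to the total UMIs of the same class of nuclei in the same mouse.

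Microglia are the resident macrophages of the brain. In healthy tissue they express a homeostatic set of genes, among them P2ry12, Tmem119 and Cx3cr1. Around plaques, dying neurons or demyelinated axons part of them enters a disease-associated state, in which homeostatic genes go down and genes for phagocytosis, lysosomal work, lipid handling and growth factors go up. Later steps of this transition are known to depend on the lipid receptor TREM2. The 10 genes cover several of these tasks. Itgax (an integrin chain also called CD11c), Axl (a receptor tyrosine kinase that binds phosphatidylserine on dying cells through GAS6) and Cd9 (a tetraspanin) sit at the cell surface. Csf1, Igf1 and Spp1 encode secreted proteins: a growth factor for macrophages that acts on CSF1R, insulin-like growth factor 1, and osteopontin, a ligand of integrins and CD44. Cst7 (cystatin F, an inhibitor of cysteine cathepsins), Lpl (lipoprotein lipase), Gpnmb (a glycoprotein of endolysosomal membranes) and Atp6v0d2 (a subunit of the proton pump that acidifies lysosomes) belong to lysosomal and lipid work.

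Each of the 27 libraries came from the hippocampi of 1 mouse aged between 8 and 10 months. The groups were 5 Cgas+/+, 2 Cgas+/- and 2 Cgas-/- mice without the tau transgene (called tau-free here), and 6 P301S Cgas+/+, 6 P301S Cgas+/- and 6 P301S Cgas-/- mice. P301S is a human tau carrying a dementia-linked mutation and expressed from the mouse Prnp promoter, and Cgas encodes a sensor of cytosolic DNA, so that the design asks what tau does and what the loss of 1 or both copies of the sensor does in mice with tau. Both sexes were present in the Cgas+/+ group and in the 3 P301S groups, with 9 females and 9 males among the P301S mice, whereas all 4 mice of the Cgas+/- and Cgas-/- groups were male. Group names below stand for libraries labelled so.

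After filtering, each library kept between 5840 and 12572 nuclei. The median pair of libraries shared 21 cell barcodes and the highest count was 48. Gm43049, a transcript chosen after its values were seen, lay between 3.11 and 21.1 CPM in excitatory neuron-like nuclei of the P301S libraries and at no more than 0.140 CPM in tau-free libraries. Cgas itself (listed under its older symbol Mb21d1) had 35.1 ± 2.68 CPM (SD, n = 5) in microglia-like nuclei of Cgas+/+ mice, 19.3 ± 4.58 (n = 2) in Cgas+/- and 27.6 ± 7.96 (n = 2) in Cgas-/- mice. With tau, each over 6 mice, the same nuclei held 38.2 ± 11.7 CPM when labelled Cgas+/+, 43.1 ± 11.3 CPM when labelled Cgas+/- and 51.5 ± 6.95 CPM when labelled Cgas-/-. In excitatory neuron-like nuclei the means were 1.39 CPM in Cgas+/+, 1.55 in Cgas+/- and 1.89 in Cgas-/-, and 1.66 ± 0.47 in P301S Cgas+/+, 1.30 ± 0.35 in P301S Cgas+/- and 0.93 ± 0.26 in P301S Cgas-/- mice. The order of the libraries labelled by Cgas genotype thus differed between the 2 classes, and none was near 0. These counts run over the whole gene, introns included, and do not check a deleted part of it. Library P301S Cgas+/+ 3 gave 62.5% of a shallow cluster that was left unnamed, and it also had the highest level of several of the 10 genes, so results are given without it where it matters.

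Microglia-like nuclei numbered 11264 (5.50% of all), between 215 and 1200 per library, with 15212625 UMIs over the 18 P301S libraries and 4372271 over the 9 tau-free libraries. All 12 microglia markers used for the name, such as Csf1r, Inpp5d, Ctss and P2ry12, were detected in 8 of the 9 sub-clusters of this class and 11 of them in sub-cluster 5. Sub-cluster 8 (310 nuclei) had 3 excitatory neuron markers and 0 microglia markers higher than in the other sub-clusters and was led by Ebf2, Asic2 and Tshz2. It was kept in the class, and it held at most 1.44% of the UMIs of any member. The 10 genes, the other disease-associated genes and the homeostatic genes that were not markers had been left out of the genes used for clustering. Of the markers of other cells that such a class could hold, Flt1 (endothelium) and Mbp (oligodendrocytes) were called higher and Slc17a7 (neurons) lower in P301S libraries, with values given further on beside the summed levels of those lists. Border macrophage markers (6 genes) summed to between 0 and 20.3 CPM in P301S and between 0 and 16.9 CPM in tau-free libraries, with Pf4, Lyve1 and Cbr2 at 0. Dendritic cell markers (6 genes) summed to between 9.55 and 40.3 CPM and between 9.84 and 31.2 CPM, with Xcr1 and Ccr7 at 0, and the monocyte markers (5 genes) to between 4.26 and 42.1 CPM and between 9.61 and 30.4 CPM. T cell markers (5 genes) summed to between 0 and 18.6 CPM and between 0 and 11.8 CPM.

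Tau came with a rise of most of these genes in microglia. In the mean of the 3 P301S groups against the mean of the 3 tau-free groups, 8 of the 10 were called higher at an adjusted p under 0.05 (edgeR quasi-likelihood test on UMIs summed per mouse, Benjamini-Hochberg over 9629 genes): Itgax, Axl, Cd9, Csf1, Igf1, Spp1, Cst7 and Lpl. Over all genes tested, 12.1% were called in this comparison, and 7.67% were called higher. The filter on low counts asked for 16.0 CPM in at least 2 libraries. Cd9 reached that in all 9 tau-free libraries, Axl in 1 and the other 8 members in 0, so all members but Cd9 entered the test only through P301S libraries where they were high. Their calls and the count of 8 are therefore descriptions, and nothing is read from that count against those shares. With the tau comparison fitted on its own 2 groups, the filter asked for 17.0 CPM in at least 5 libraries, and 3 members (Axl, Cd9 and Csf1) passed. Gpnmb (adjusted p = 0.0697) and Atp6v0d2 (adjusted p = 0.0837) missed the threshold in edgeR and passed it in DESeq2 (adjusted p = 0.00191 and 0.00322). DESeq2 called all 10 members, and 8.27% of all genes were called higher there. It used the same filter, so its calls and the count of 10 are descriptions too. No member had P301S libraries that lay entirely above the tau-free ones. At most 16 of the 18 P301S libraries exceeded all 9 tau-free libraries, for Lpl, Csf1 and Cd9, and at least 11 did, for Gpnmb and Igf1. The call for Spp1 was lost on leaving out any of 9 libraries and the call for Igf1 on leaving out any of 12, with adjusted p up to 0.120 and 0.157. Without the library Cgas+/- 2, 4 members were called (2.21% of all genes higher), and without Cgas-/- 1, 5 were (3.67% higher). Calls of members other than Spp1 and Igf1 were thus also lost on leaving out 1 tau-free library.

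**Figure D1:**
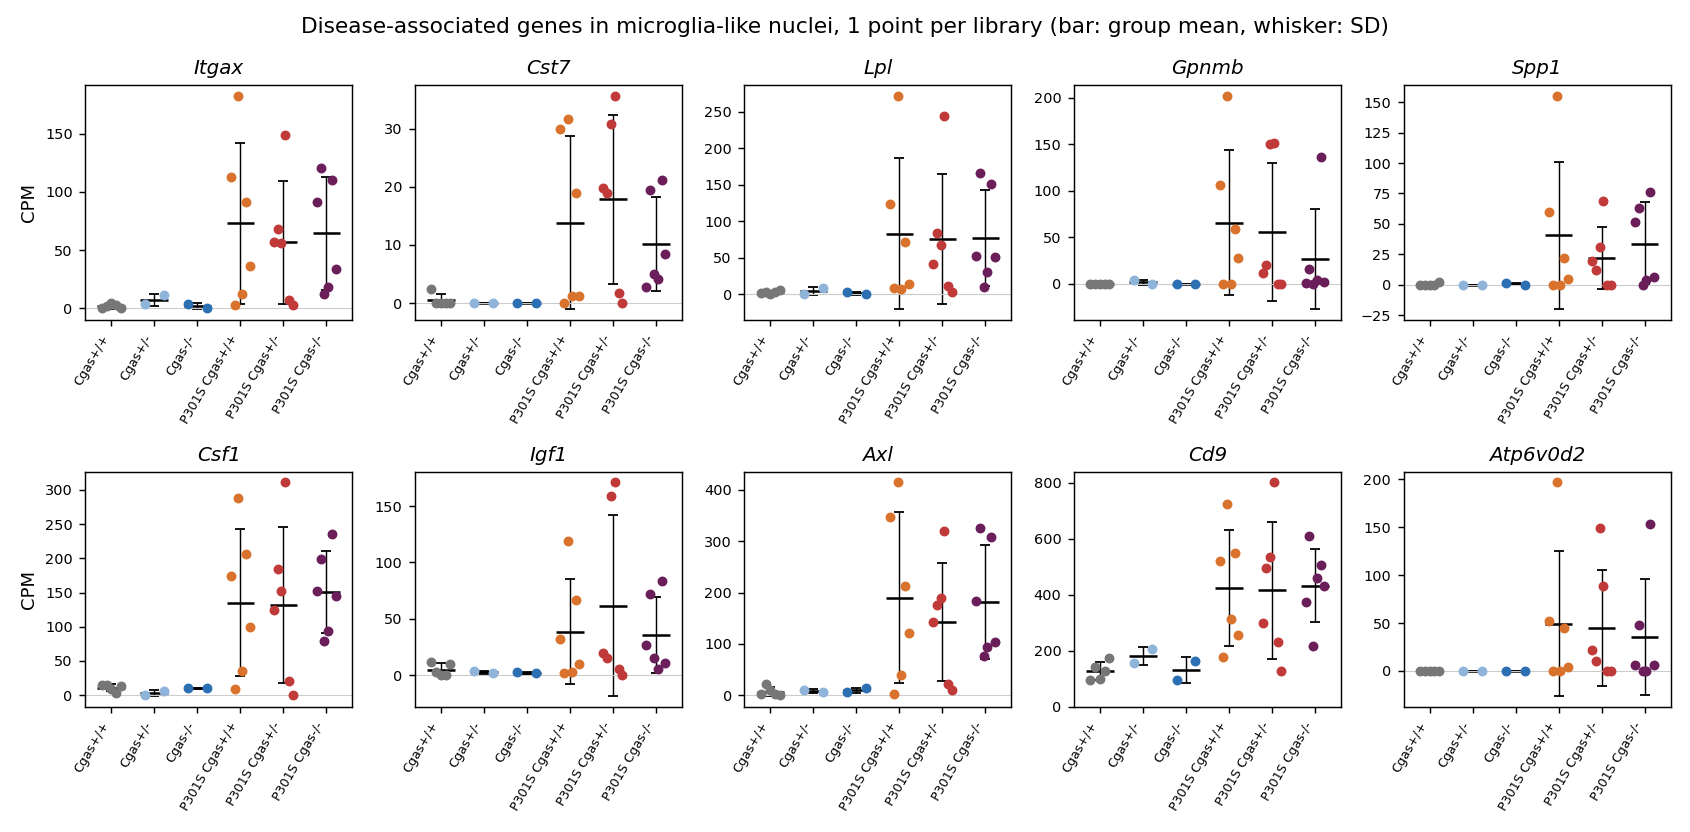
CPM of the 10 genes in microglia-like nuclei, 1 panel per gene on its own linear axis. Points are libraries, black bars group means and whiskers SDs. Tau-free libraries stay near 0 for every gene but Cd9. P301S libraries are widely spread, and the 6 P301S Cgas-/- libraries start above the tau-free ones for Itgax, Cst7, Lpl, Csf1, Axl and Cd9. For Cst7 the margin is 2.86 against 2.43 CPM, and the share of all genes with such a gap was not computed.

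As a view of regulatory sequence that members share, the window from 250 bases before to 50 bases after the annotated start (RefSeq, GRCm38.p6) was searched on both strands for short motifs of factors known in macrophages. Windows were found for 8 of the 10 genes, and not for Lpl and Atp6v0d2. TGANTCA, a loose form of the core bound by AP-1 factors (TGACTCA or TGAGTCA), was in the windows of Itgax, Cst7, Gpnmb and Igf1. Of all 32851 windows, 7.81% hold TGANTCA. Itgax and Gpnmb matched the stricter core, while the middle base was T in Cst7 and A in Igf1. GAGGAA, the core bound by PU.1, was in a window of Spp1, Igf1 and Axl, and 28.3% of all windows hold it. CACGTG (7.15% of all windows) and TCATGTG or TCACATG (6.67%), the E-box and M-box of the MiT/TFE factors that drive lysosomal genes, were in none of these windows. A match of letters is a description and not a binding site. The 4 windows with TGANTCA are shown as 150 bases each, read 5′ to 3′ on the strand of the gene, with TGANTCA and any GAGGAA in capitals and the annotated start after base 130.

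Itgax (chr7:128129420-128129569, + strand): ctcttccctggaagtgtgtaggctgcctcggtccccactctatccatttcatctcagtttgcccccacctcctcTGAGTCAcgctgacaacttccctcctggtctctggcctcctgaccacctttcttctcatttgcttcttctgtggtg

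Cst7 (chr2:150570285-150570434, + strand): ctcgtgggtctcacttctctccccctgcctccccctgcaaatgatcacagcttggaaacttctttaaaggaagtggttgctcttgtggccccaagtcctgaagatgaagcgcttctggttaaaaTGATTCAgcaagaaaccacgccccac

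Gpnmb (chr6:49036388-49036537, + strand): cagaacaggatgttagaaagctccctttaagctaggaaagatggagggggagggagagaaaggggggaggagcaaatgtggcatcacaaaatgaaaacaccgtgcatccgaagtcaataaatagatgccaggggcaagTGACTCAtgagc

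Igf1 (chr10:87860981-87861130, + strand): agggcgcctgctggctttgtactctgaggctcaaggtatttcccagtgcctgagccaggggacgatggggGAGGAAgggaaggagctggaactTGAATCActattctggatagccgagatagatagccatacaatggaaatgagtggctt

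The match began 56 bases before the start of Itgax, 6 before that of Cst7, 37 before that of Igf1 and 8 after that of Gpnmb. The Igf1 window lies inside the gene as GENCODE vM21 draws it (chr10:87858265-87937042), at a start of a RefSeq transcript. Members with TGANTCA (Itgax, Cst7 and Igf1 called, Gpnmb not) and members without it in their windows (Csf1, Axl, Cd9 and Spp1 called) were both among the genes called in edgeR.

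The surface genes Itgax, Axl and Cd9 were detected in microglia-like nuclei of all 18 P301S mice. Itgax (chr7:128129547-128150657) had between 0 and 11.2 CPM with a median of 2.94 in the 9 tau-free libraries. In P301S Cgas+/+ mice its level ranged from 3.40 to 183 CPM with a median of 63.7, in P301S Cgas+/- mice from 3.18 to 149 CPM with a median of 56.5, and in P301S Cgas-/- mice from 12.4 to 120.9 CPM with a median of 62.8. Thus 15 of the 18 P301S libraries lay above every tau-free library, and P301S Cgas+/+ 2, P301S Cgas+/- 5 and P301S Cgas+/- 6 did not. The fitted log2 fold change of Itgax was 4.36 (SE 0.97, adjusted p = 0.00735, edgeR), and pooled UMIs (1177 against 15) gave a ratio of 22.6 with a 95% interval from 13.6 to 40.4 that covers counting error only.

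Axl (chr7:25757273-25788705) had between 0 and 22.1 CPM (median 6.41) in tau-free libraries, and in P301S libraries from 1.70 to 415 CPM (median 168) for Cgas+/+, from 9.55 to 319 CPM (median 159) for Cgas+/- and from 76.7 to 327 CPM (median 144) for Cgas-/-. All 6 P301S Cgas-/- libraries were above the highest tau-free library, while 15 of the 18 P301S libraries were in all. Its log2 fold change was 4.54 (SE 0.87, adjusted p = 0.00344, edgeR).

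Cd9 (chr6:125460266-125494791) differed from the other members in its much higher level without tau. Tau-free libraries held between 97.1 and 205 CPM (median 143). P301S Cgas+/+ libraries held 177 to 722 CPM (median 417), P301S Cgas+/- libraries 127 to 803 CPM (median 398) and P301S Cgas-/- libraries 218 to 608 CPM (median 445). Its log2 fold change of 1.54 (SE 0.33, adjusted p = 0.00563, edgeR) was the smallest of the 8 called members, and the pooled ratio was 3.37 (95% interval 3.102 to 3.66, counting error only).

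Of the secreted factors, Csf1 (chr3:107741048-107760469) had between 0 and 14.8 CPM (median 9.84) in tau-free libraries. P301S Cgas+/+ libraries ranged from 8.49 to 288 CPM (median 137), P301S Cgas+/- libraries from 0 to 311 CPM (median 138) and P301S Cgas-/- libraries from 79.2 to 236 CPM (median 148). As with Axl, every P301S Cgas-/- library exceeded all tau-free libraries, and 16 of the 18 P301S libraries did. The log2 fold change was 4.18 (SE 0.80, adjusted p = 0.00328, edgeR).

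Igf1 (chr10:87858265-87937042) was carried by fewer libraries. The tau-free libraries held between 0 and 12.1 CPM (median 2.46), and the medians of the P301S groups were 20.9 CPM for Cgas+/+ (1.70 to 119), 17.7 for Cgas+/- (0 to 171) and 21.0 for Cgas-/- (5.23 to 83.6). P301S Cgas+/- 4 and P301S Cgas+/- 3, with 171 and 159 CPM, stood above all other libraries, and 11 of the 18 P301S libraries exceeded the tau-free range. Its log2 fold change was 3.98 (SE 1.24, adjusted p = 0.0413, edgeR). The adjusted p of Igf1 rose to 0.0582 when microglia were chosen by a marker rule in each nucleus and to 0.0608 when nuclei were thinned to 1000 UMIs.

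Spp1 (chr5:104435118-104441050) was close to absent without tau, with 2 UMIs over the 9 tau-free libraries, 1 of them in Cgas+/+ 5 and the other in Cgas-/- 1. P301S libraries held from 0 to 155 CPM in Cgas+/+ (median 13.6), 0 to 68.6 CPM in Cgas+/- (median 16.0) and 0 to 76.3 CPM in Cgas-/- (median 28.9), with no UMI in 5 of the 18. P301S Cgas+/+ 3 gave 24.5% of the 580 P301S UMIs. The pooled ratio was 83.4 (95% interval 22.97 to 690, counting error only), and the call had an adjusted p of 0.0335 (edgeR).

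Of the lysosomal and lipid genes, Lpl and Cst7 were called in edgeR and all 4 in DESeq2. Lpl (chr8:68880491-68907448) had between 0 and 8.01 CPM (median 2.46) in tau-free libraries. It ranged from 7.58 to 272 CPM (median 42.7) in P301S Cgas+/+, from 3.18 to 245 CPM (median 54.4) in P301S Cgas+/- and from 9.90 to 167 CPM (median 52.0) in P301S Cgas-/- libraries, 16 of 18 above the tau-free range. The log2 fold change was 4.76 (SE 1.17, adjusted p = 0.0125, edgeR).

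Cst7 (chr2:150570415-150578944) had 1 UMI in the tau-free libraries, in Cgas+/+ 1, and 255 in P301S libraries. Medians were 10.1 CPM in P301S Cgas+/+ (0 to 31.7), 19.3 in P301S Cgas+/- (0 to 35.7) and 6.73 in P301S Cgas-/- (2.86 to 21.1). The pooled ratio was 73.3 (95% interval 13.04 to 2906, counting error only), and the adjusted p was 0.0109 (edgeR).

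Gpnmb (chr6:49036546-49070929) had 1 UMI in the tau-free libraries, in Cgas+/- 1, against 964 in P301S libraries. The P301S libraries ran from no UMI in 5 of them to above 100 CPM in another 5. P301S Cgas+/+ libraries ranged from 0 to 202 CPM (median 43.0), P301S Cgas+/- from 0 to 152 CPM (median 15.9) and P301S Cgas-/- from 0 to 136 CPM (median 3.16). In the P301S Cgas-/- group the next library below 136 CPM had 15.6 CPM. The pooled ratio was 277 (95% interval 49.6 to 10950, counting error only).

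Atp6v0d2 (chr4:19876841-19922605) had no UMI in any of the 9 tau-free libraries and 838 UMIs in P301S libraries, at least 80.3-fold higher against a floor of 3 UMIs over the tau-free group. It was above 0 in 12 of the 18 P301S libraries. The highest levels were 197 CPM in P301S Cgas+/+ 3, 153 CPM in P301S Cgas-/- 5 and 149 CPM in P301S Cgas+/- 3, and the medians of the 3 P301S groups in the order Cgas+/+, Cgas+/- and Cgas-/- were 24.0, 15.9 and 6.05 CPM. Gpnmb and Atp6v0d2 had the highest coefficients of variation over the P301S libraries, 137% and 144%, and Cd9 the lowest, 44.5%.

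**Figure D2:**
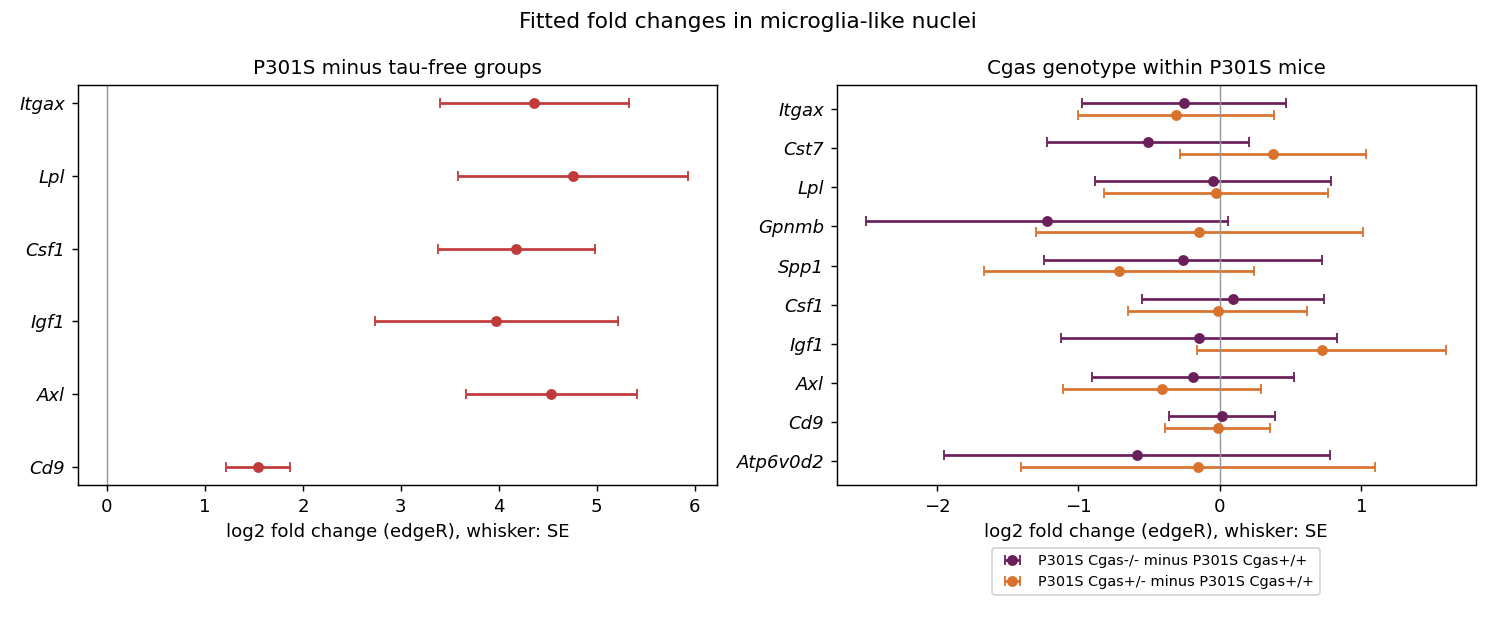
Fitted log2 fold changes (points) with their SEs (whiskers) in microglia-like nuclei. The left panel gives the P301S average for the 6 genes with more than 2 UMIs in tau-free libraries, all above 0, and the right panel gives Cgas-/- and Cgas+/- against Cgas+/+ within P301S mice, where every whisker crosses 0.

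The members stood high in the same mice. In 9 of the 18 P301S libraries all 10 members exceeded every tau-free library, namely in P301S Cgas+/+ 1, 3 and 5, in P301S Cgas+/- 1 to 4 and in P301S Cgas-/- 2 and 5. P301S Cgas+/- 6 exceeded the tau-free range for 0 members, P301S Cgas+/+ 2 for 1, P301S Cgas+/- 5 for 3 and P301S Cgas+/+ 4 for 4, and the other libraries for 7 to 9. Gm43049 was detected in these low libraries too, but it was chosen after its values were seen, so nothing is read from that. Cst7, Gpnmb, Spp1 and Atp6v0d2 had almost no UMIs without tau, so a few UMIs sufficed to exceed their tau-free range. Such counts were not made over all genes, and nothing is read from them. When the 18 libraries were ranked from 1 (highest) to 18 for each gene, P301S Cgas+/+ 3 had a median rank of 1 over the 10 genes and P301S Cgas+/- 4 of 2, whereas P301S Cgas+/+ 2 had 17.0 and P301S Cgas+/- 6 had 17.8. Rank orders differed in places. P301S Cgas-/- 1 was 6th for Itgax and for Spp1 and 13th for Gpnmb and Cst7. In P301S Cgas+/- 3 the order was the other way, with rank 3 for Gpnmb, Atp6v0d2 and Cst7 and rank 10 for Itgax. The ranks rest on the same libraries and share their depth, and no test was made on them.

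Taken between Cgas+/+ mice alone, the tau comparison (P301S Cgas+/+ against Cgas+/+, 6 against 5 mice) had all 10 members higher, and none passed the threshold in edgeR. No gene of 9080 did (0% called), with 1472 genes at an unadjusted p under 0.05. The smallest adjusted p among the members was 0.0877, for Axl (log2 fold change 4.79, SE 1.21) and Cd9 (1.71, SE 0.44), followed by Csf1 with 0.0973 (3.60, SE 1.01) and Itgax with 0.0996 (5.23, SE 1.47). DESeq2 called 284 genes in this comparison, 245 of them higher (2.7% of the genes tested), and 9 of the 10 members, all but Igf1 (adjusted p = 0.0937). As in the P301S average, all members but Cd9 passed the low-count filter only through P301S libraries where they were high. Counts of members called with the filter are therefore descriptions here too, and nothing is read from them against the shares of all genes. With no low-count filter edgeR called all 10 members and 2.99% of all genes as higher. Without the library P301S Cgas+/+ 2, whose members lay near tau-free levels, edgeR called 440 genes (3.63% higher) and 4 members, and without P301S Cgas+/+ 4 it called 32 genes and no member.

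In edgeR with its filter on low counts, no difference between the Cgas genotypes was detected for the 10 genes in microglia of mice with tau. In the deletion comparison (P301S Cgas-/- against P301S Cgas+/+, 6 against 6 mice), edgeR called none of 9080 genes (0%), and 225 genes had an unadjusted p under 0.05. Log2 fold changes of the members ran from -1.22 (SE 1.28) for Gpnmb to 0.09 (SE 0.64) for Csf1, with Atp6v0d2 at -0.58 (SE 1.36), Cst7 at -0.51 (SE 0.71) and Axl at -0.19 (SE 0.71), and 2 of the 10 were positive. The SEs leave room for changes in either direction. Without the library P301S Cgas+/+ 3, which held the highest level of its group for all 10 members, the sign turned for 6 of them: Itgax (0.17), Lpl (0.66), Spp1 (0.74), Igf1 (0.39), Axl (0.23) and Atp6v0d2 (0.44). In the heterozygous comparison (P301S Cgas+/- against P301S Cgas+/+, 6 against 6 mice), none of 9080 genes was called (0%), 199 had an unadjusted p under 0.05, and members ran from -0.71 (SE 0.96) for Spp1 to 0.72 (SE 0.88) for Igf1. There 2 of the 10 members were positive, and without P301S Cgas+/+ 3 all 10 were, again with no gene called. With no low-count filter, 22 genes were called in the deletion comparison and 32 in the heterozygous one. The deletion calls held 1 member, Gpnmb, lower in P301S Cgas-/- mice (log2 fold change -1.24, SE 0.22, adjusted p = 3.3e-05, edgeR, 0.0791% of all genes called lower), whose SE in the filtered fit was 1.28.

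The Cgas genotype without tau was tested with few mice. Between 2 Cgas-/- and 5 Cgas+/+ mice, none of 9629 genes was called (0%, 256 at an unadjusted p under 0.05), and Cd9 differed by 0.0059 on the log2 scale (SE 0.59). Csf1 had 9.84 and 10.1 CPM in the 2 Cgas-/- libraries, inside the range of 2.94 to 14.8 CPM of the Cgas+/+ libraries. The interaction of tau with Cgas deletion called none of 9629 genes (0%, 291 at an unadjusted p under 0.05), and gave 0.0045 (SE 0.69) for Cd9 and 0.33 (SE 1.84) for Csf1. No fold change is given there for Gpnmb and Atp6v0d2, which had no UMI in the Cgas-/- or Cgas+/+ groups. Sex was compared within the 18 P301S mice, where 7 of 8549 genes (0.0819%) were called and none of the 9 members tested was. The female minus male log2 fold change of the members lay between -0.42 (SE 0.64) for Axl and 0.09 (SE 0.77) for Lpl.

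File headers name 2 versions of the counting software, 3.0.2 for 12 libraries, all male, and 3.1.0 for 15. All P301S females were thus in the 3.1.0 set, while males were in both. The sex comparison above had no term for the version, so sex and version cannot be fully told apart there. Within the 3.0.2 libraries (6 P301S and 6 tau-free), mean Csf1 was 141 CPM in P301S and 9.28 CPM in tau-free mice, and within the 3.1.0 libraries (12 and 3) it was 139 and 8.83 CPM. Axl had 196 against 10.3 CPM and 159 against 4.18 CPM in the same 2 sets, and Lpl 79.6 against 2.56 CPM and 77.9 against 2.98 CPM. Gpnmb, Atp6v0d2 and Igf1 had lower means in P301S mice of the 3.0.2 set (25.9, 22.9 and 28.0 CPM) than in those of the 3.1.0 set (61.1, 53.6 and 54.0 CPM), a difference that was not tested. Gm43049 in excitatory neuron-like nuclei also differed between the sets, which was not tested either. It ran from 15.2 to 21.1 CPM in P301S libraries of the 3.0.2 set and from 3.1 to 8.5 CPM in those of the 3.1.0 set. With the version as a block, 6 members were called in the P301S average, where 6.08% of all genes were called higher, Igf1 (adjusted p = 0.0885) and Spp1 (adjusted p = 0.0533) no longer being among them.

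Counts per nucleus told how far the genes met in the same nuclei. With each nucleus thinned to 1000 UMIs, which left 10780 of the microglia-like nuclei, a mean of 0.532% of nuclei in Cgas+/+, 0.484% in Cgas+/- and 0.471% in Cgas-/- mice held UMIs of 2 or more members. In the P301S groups the means were 17.96% for Cgas+/+ (1.05% to 43.1% over 6 mice), 16.7% for Cgas+/- (0% to 45.9%) and 18.2% for Cgas-/- (6.67% to 36.5%). Without thinning the P301S means were 29.8%, 28.0% and 29.2%. UMIs of 4 or more members were in up to 11.9% of nuclei of a P301S Cgas+/+ library after thinning in none of the Cgas+/+ and Cgas-/- nuclei, and in up to 0.242% of nuclei of a Cgas+/- library.

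Relative to their shares of all nuclei, Gpnmb and Atp6v0d2 were the pair found together most, while in number Axl and Cd9 met in 442 nuclei and Gpnmb and Atp6v0d2 in 86. Of the 188 thinned nuclei with Atp6v0d2, 45.7% also had Gpnmb, against 1.87% of all thinned microglia-like nuclei, and 27.7% had Igf1 (2.61% of all) and 20.2% had Spp1 (1.70%). Of the 1169 nuclei with Axl, 5.30% had Gpnmb and 18.3% had Csf1 (8.03% of all). Nuclei of the same mouse are not independent, and these shares mix mice with high and low levels. As a measure of free RNA, the same thinning was applied to 44226 oligodendrocyte-like nuclei. Atp6v0d2 was in 0.00904% of them and in 1.74% of microglia-like nuclei, Gpnmb in 0.0724% and 1.87%, and Axl in 0.149% and 10.8%. Csf1 (11.46% and 8.03%) and Cd9 (14.7% and 26.1%) are expressed by oligodendrocytes too, so their shares there are no measure of background.

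The microglia-like share of nuclei was 3.94% ± 0.20 (SD, n = 5) in Cgas+/+ and 6.48% ± 2.11 (n = 6) in P301S Cgas+/+ mice (exact two-sided permutation test p = 0.0260, adjusted over 3 comparisons 0.0779). It was 5.85% ± 2.05 (n = 6) in P301S Cgas-/- mice (exact two-sided permutation test p = 0.597, adjusted 0.597) and 5.33% ± 2.02 (n = 6) in P301S Cgas+/- mice (exact two-sided permutation test p = 0.359, adjusted 0.539). The tau-free Cgas+/- libraries had a mean of 4.66% (2.90% and 6.42%, n = 2). Tau-free Cgas-/- libraries had 6.93% (5.04% and 8.81%, n = 2), above the mean of each P301S group. These 2 groups were not tested. Without P301S Cgas+/+ 3, the library that gave most of the shallow cluster, the difference for tau was 3.12 percentage points (adjusted p = 0.0238, exact permutation test). Leaving out any other library of these groups gave an adjusted p of 0.143 (exact permutation test), so the tau difference passed the threshold in that 1 setting only.

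Microglia-like nuclei were clustered again without the 10 genes, and the genes then sorted into different sub-clusters. Sub-cluster 5 held 1010 nuclei, 8.87% of the 11390 microglia and macrophage nuclei, and in it were 93.6% of the Gpnmb UMIs, 92.8% of the Atp6v0d2 UMIs, 76.3% of the Spp1 UMIs and 67.7% of the Igf1 UMIs. Sub-cluster 1, with 2083 nuclei (18.3%), held the largest shares of Csf1 (44.9%), Cst7 (43.0%), Axl (41.4%) and Cd9 (35.8%). Itgax was split between them, with 44.2% in sub-cluster 5 and 41.1% in sub-cluster 1, and Lpl with 52.6% and 39.96%. Atp6v0d2 had 323 CPM in sub-cluster 5 and 8.87 CPM in sub-cluster 1, and Gpnmb 375 and 7.94 CPM, while Axl had 408 and 303 CPM and Cd9 711 and 657 CPM. Other leading genes of sub-cluster 5 were Mamdc2, Myof, Dkk2 and Lgals3, and those of sub-cluster 1 included Fgr, Rai14, Myo1e and Cd83. A cluster against the rest is no test, since the same nuclei define it.

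**Figure D3:**
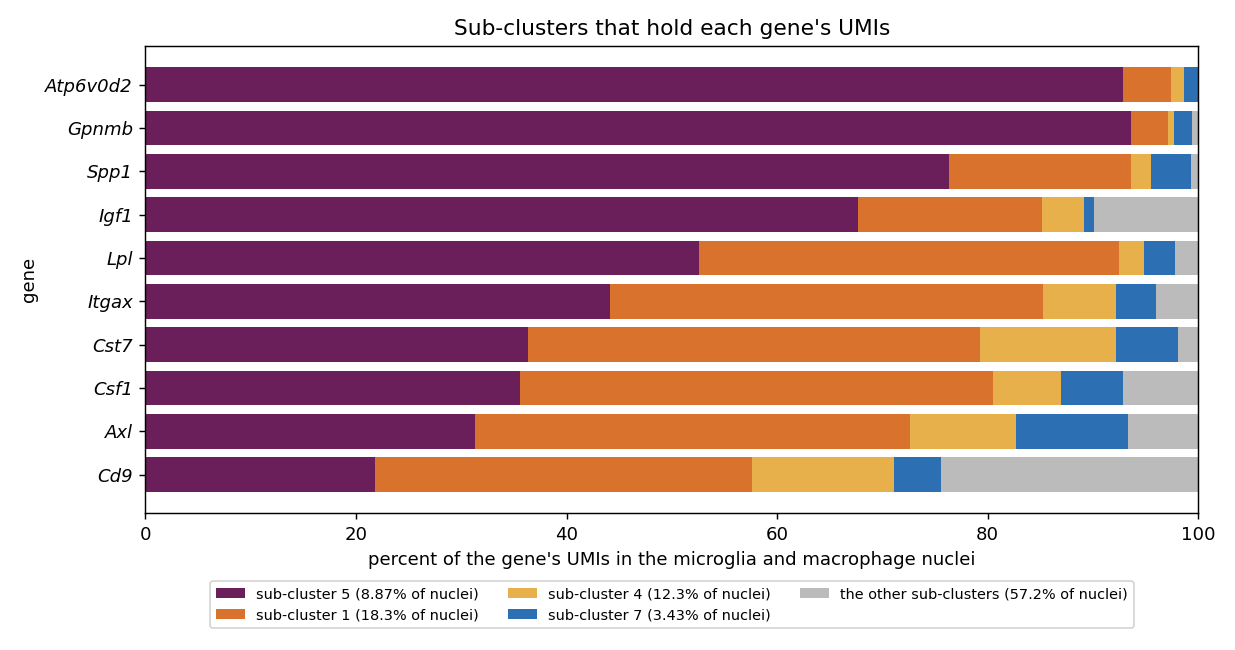
Percent of the UMIs of each gene (horizontal axis) that fell in sub-clusters 5, 1, 4 and 7 and in all others. The bars of Gpnmb and Atp6v0d2 are filled almost wholly by sub-cluster 5, those of Csf1, Axl and Cst7 are shared with sub-cluster 1, and Cd9 keeps the largest part outside these.

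Sub-cluster 7 (391 nuclei) was led by interferon-stimulated genes such as Mx1, Cxcl10 and Rsad2. It held 10.7% of the Axl UMIs, at 430 CPM, and 1.31% of the Atp6v0d2 UMIs. Nearly all nuclei of sub-clusters 5 and 1 came from P301S libraries, 1004 of 1010 and 2066 of 2083, and sub-cluster 5 took from 0% to 46.4% of the nuclei of a P301S library. In each of the other 7 sub-clusters of microglia, pooled P301S nuclei had higher levels of Csf1, Axl and Cd9 than pooled tau-free nuclei. Tau-free nuclei numbered only 10 (17698 UMIs in all) in sub-cluster 7 and 42 (62958 UMIs) in sub-cluster 4. Tau-free levels in these sub-clusters, also those at 0, therefore rest on very few UMIs. In sub-cluster 0 (2188 nuclei), pooled P301S nuclei had 23.4 CPM of Csf1 against 6.24 CPM in tau-free nuclei, 27.8 against 5.10 CPM of Axl and 206 against 138 CPM of Cd9. Igf1, Lpl and Gpnmb had few UMIs there, and their order differed between sub-clusters: Igf1 had 2.19 against 4.54 CPM in sub-cluster 0 and 16.9 against 0 CPM in sub-cluster 4, and Lpl 2.92 against 3.40 CPM and 14.6 against 0 CPM. These are pooled values with no replicate error, and the sizes of the sub-clusters were not compared between groups.

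The genes around the members were read from lists drawn up with earlier results of these data in view. Of 29 other disease-associated genes that could be tested in the P301S average, 22 were called higher and 0 lower in edgeR, beside 7.67% of all genes higher and 4.39% lower, with a median log2 fold change of 1.64 against -0.0023 over all genes tested. Of the 29, 9 were kept by the low-count filter only through P301S libraries, 8 of them called, so the count and the median are descriptions. The 3 with the smallest p were the chemokine Ccl4 (3.06, SE 0.54, adjusted p = 0.00136, 1 of those 9), the lysosomal protease Ctsb (1.41, SE 0.26, adjusted p = 0.00261) and the adhesion gene Cadm1 (0.68, SE 0.14, adjusted p = 0.00423). Of 17 homeostatic genes, none of them kept only through P301S libraries, 7 were called lower (4.39% of all genes) and 0 higher (7.67%), led by P2ry13 (-0.89, SE 0.22, adjusted p = 0.0112), Siglech (-0.86, SE 0.21, adjusted p = 0.0122) and Cx3cr1 (-0.40, SE 0.11, adjusted p = 0.0161). Siglech ranged from 285 to 942 CPM in P301S and from 880 to 1198 CPM in tau-free libraries, so the groups overlapped. P2ry12 (-0.51, SE 0.18, adjusted p = 0.0611, edgeR) and Tmem119 (-0.93, SE 0.32, adjusted p = 0.0630, edgeR) were lower and not called.

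Receptors, ligands, partners and substrates of the members gave 6 called higher and 1 lower of 23 tested, beside the same shares of all genes. The filter kept 4 of the 23 only through P301S libraries, 2 of them called. Cd44, a receptor for osteopontin and 1 of these 4, had a tau-free median of 2.43 CPM and a P301S median of 18.8 CPM (log2 fold change 4.52, SE 1.14, adjusted p = 0.0145, edgeR). Ctsc, a cathepsin that cystatin F can inhibit, rose by 0.91 on the log2 scale (SE 0.21, adjusted p = 0.00788), and Ctsh by 0.66 (SE 0.16, adjusted p = 0.00980). Of the other subunits of the proton pump to which Atp6v0d2 belongs, 4 of 14 tested were called higher (7.67% of all genes) and 0 lower (4.39%), with Atp6v1b2 at 0.84 (SE 0.17, adjusted p = 0.00274), Atp6v1c1 at 0.52 (SE 0.14, adjusted p = 0.0143) and Atp6v0d1, the paralog of Atp6v0d2, at 0.42 (SE 0.13, adjusted p = 0.0296). Atp6v0d1 was present without tau, at 78.5 to 148 CPM. Of 11 regulators, Mitf (1.08, SE 0.24, adjusted p = 0.00632) and Runx1 (0.43, SE 0.11, adjusted p = 0.0108) were called higher, beside 7.67% of all genes, and 2 were called lower, beside 4.39%, Tgfb1 (-0.40, SE 0.10, adjusted p = 0.0132) among them. Mitf had a median of 574 CPM in tau-free and 1176 CPM in P301S libraries.

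Markers of other cells moved with tau in a few cases. Flt1, on the endothelial list and kept by the filter only through P301S libraries, was called higher in P301S microglia-like nuclei (log2 fold change 3.71, SE 1.06, adjusted p = 0.0271, edgeR). The 2 endothelial markers summed to between 0 and 254 CPM (median 51.6) in P301S and between 1.69 and 28.8 CPM in tau-free libraries. Flt1 alone ran from 0 to 253 CPM (median 51.6) and from 0 to 25.6 CPM, so the P301S levels of the sum are mainly those of Flt1. The other endothelial marker did not pass the filter. Mbp, of the oligodendrocyte list, was called higher (0.51, SE 0.17, adjusted p = 0.0444), and the 3 markers of that list summed to between 172 and 384 CPM against 159 to 332 CPM. Slc17a7, of the neuron list, was called lower (-0.86, SE 0.22, adjusted p = 0.0108), and the 5 neuronal markers summed to between 451 and 1648 CPM against 760 to 1845 CPM. The 3 astrocyte markers summed to between 333 and 576 CPM against 374 to 541 CPM, and the 3 choroid plexus markers to between 14.5 and 228 CPM against 19.2 to 309 CPM, with none called. The part of these cells in the results was not tested.

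Outside microglia the set came apart by gene. Itgax, Cst7, Lpl, Spp1 and Atp6v0d2 had means over libraries under 5 CPM in excitatory and inhibitory neuron-like, astrocyte-like, oligodendrocyte-like and OPC-like nuclei (OPC, oligodendrocyte precursor cell), with Lpl the highest of them at a mean of 3.76 CPM and up to 6.94 CPM in an excitatory neuron-like library. The mean of Atp6v0d2 was at most 0.305 CPM in every class other than microglia. Cd9 averaged 160 ± 35.2 CPM (SD, n = 27 libraries) in oligodendrocyte-like, 138 ± 51.8 in OPC-like and 64.0 ± 23.4 in astrocyte-like nuclei. It also averaged 147 ± 66.2 in ependymal-like (n = 25), 83.5 ± 33.1 in choroid plexus-like (n = 19) and 70.5 ± 155 in endothelial-like nuclei (n = 26). Csf1 averaged 130 ± 39.2 CPM in oligodendrocyte-like and 62.7 ± 29.97 in astrocyte-like nuclei. Axl averaged 65.0 ± 7.21 in astrocyte-like and 158 ± 73.1 (n = 26) in pericyte and smooth muscle-like nuclei. Border macrophage-like nuclei held Axl at 169 ± 284 CPM (n = 26, 24 UMIs), beside 117 ± 129 in microglia-like nuclei. They also held Lpl at 28.0 ± 137 (2 UMIs) and Itgax at 14.0 ± 48.2 (4 UMIs). Igf1 averaged 129 ± 31.0 CPM in inhibitory neuron-like nuclei, which are known to make this factor, and 253 ± 299 (n = 26) in the 126 border macrophage-like nuclei. Fibroblast-like nuclei (n = 22) held Csf1 at 70.3 ± 46.5, Axl at 47.7 ± 40.3, Cd9 at 44.5 ± 36.8, Igf1 at 38.5 ± 89.5 and Spp1 at 26.4 ± 30.4 CPM.

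**Figure D4:**
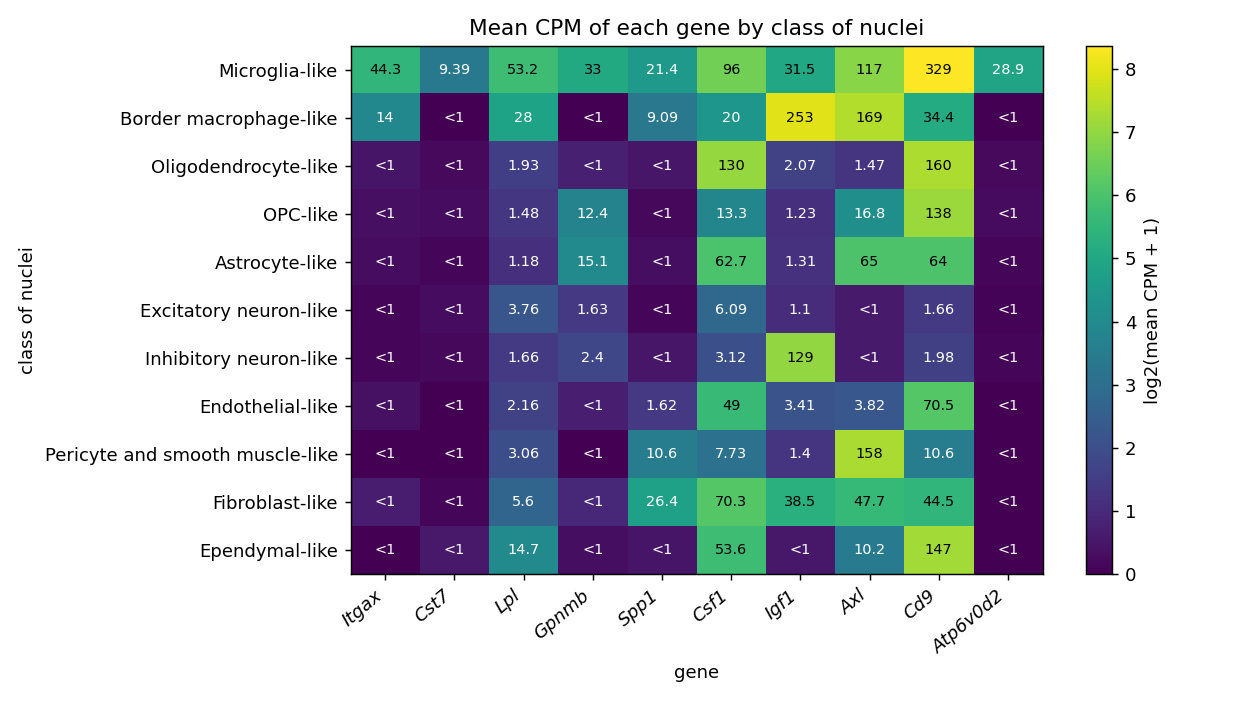
Mean CPM of each gene (columns) over libraries in 11 classes of nuclei (rows), coloured by log2(mean CPM + 1) and printed in each cell. Atp6v0d2 and Cst7 exceed 1 CPM in no class shown but microglia, whereas Csf1, Cd9, Axl and Igf1 are spread over several.

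Csf1 also rose in astrocytes. In astrocyte-like nuclei it had 39.8 ± 4.39 CPM (SD, n = 9) in tau-free and 74.2 ± 30.8 CPM (n = 18) in P301S libraries (log2 fold change 0.93, SE 0.23, adjusted p = 0.0361, edgeR, where 2.78% of 13779 genes were called). The P301S libraries ran from 29.9 to 139 CPM and overlapped the tau-free ones at 34.5 to 46.9 CPM. This call was lost on leaving out any of 11 libraries, with an adjusted p up to 0.146 without Cgas-/- 1. Cd9 had 48.1 ± 7.53 and 71.9 ± 24.8 CPM in the same nuclei (0.62, SE 0.18, adjusted p = 0.0627) and Gpnmb 6.04 ± 3.78 and 19.6 ± 19.8 CPM (1.80, SE 0.70, adjusted p = 0.171), and both passed in DESeq2 (adjusted p = 0.0183 and 0.0447), where 3.78% of all genes were called higher. Axl had 63.9 ± 5.22 and 65.6 ± 8.10 CPM in astrocyte-like nuclei (-0.05, SE 0.07, adjusted p = 0.803). Microglia markers in astrocyte-like nuclei summed to 77.2 ± 6.71 CPM in tau-free and 89.2 ± 10.0 CPM in P301S libraries, 0.619% and 0.790% of their sum in microglia-like nuclei. The part of microglial RNA in these levels was not tested.

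In oligodendrocyte-like nuclei 0.00772% of 12953 genes were called, and neither Csf1 nor Cd9 was. Csf1 had 97.6 ± 10.6 CPM in tau-free (n = 9) and 146 ± 38.3 CPM in P301S libraries (n = 18), a log2 fold change of 0.57 (SE 0.16, adjusted p = 0.121, edgeR). Cd9 had 130 ± 25.1 and 174 ± 30.1 CPM (0.53, SE 0.11, adjusted p = 0.0539). DESeq2 called both (adjusted p = 0.0278 and 0.00346) and 0.741% of all genes as higher. In OPC-like nuclei (0.315% of 9523 genes called) Csf1 had 7.06 ± 2.77 and 16.4 ± 7.34 CPM (1.07, SE 0.28, adjusted p = 0.0847), Cd9 99.8 ± 12.4 and 157 ± 53.9 CPM (0.59, SE 0.20, adjusted p = 0.291), and Gpnmb 19.0 ± 11.8 and 9.10 ± 9.16 CPM (-1.05, SE 0.56, adjusted p = 0.608).

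**Figure D5:**
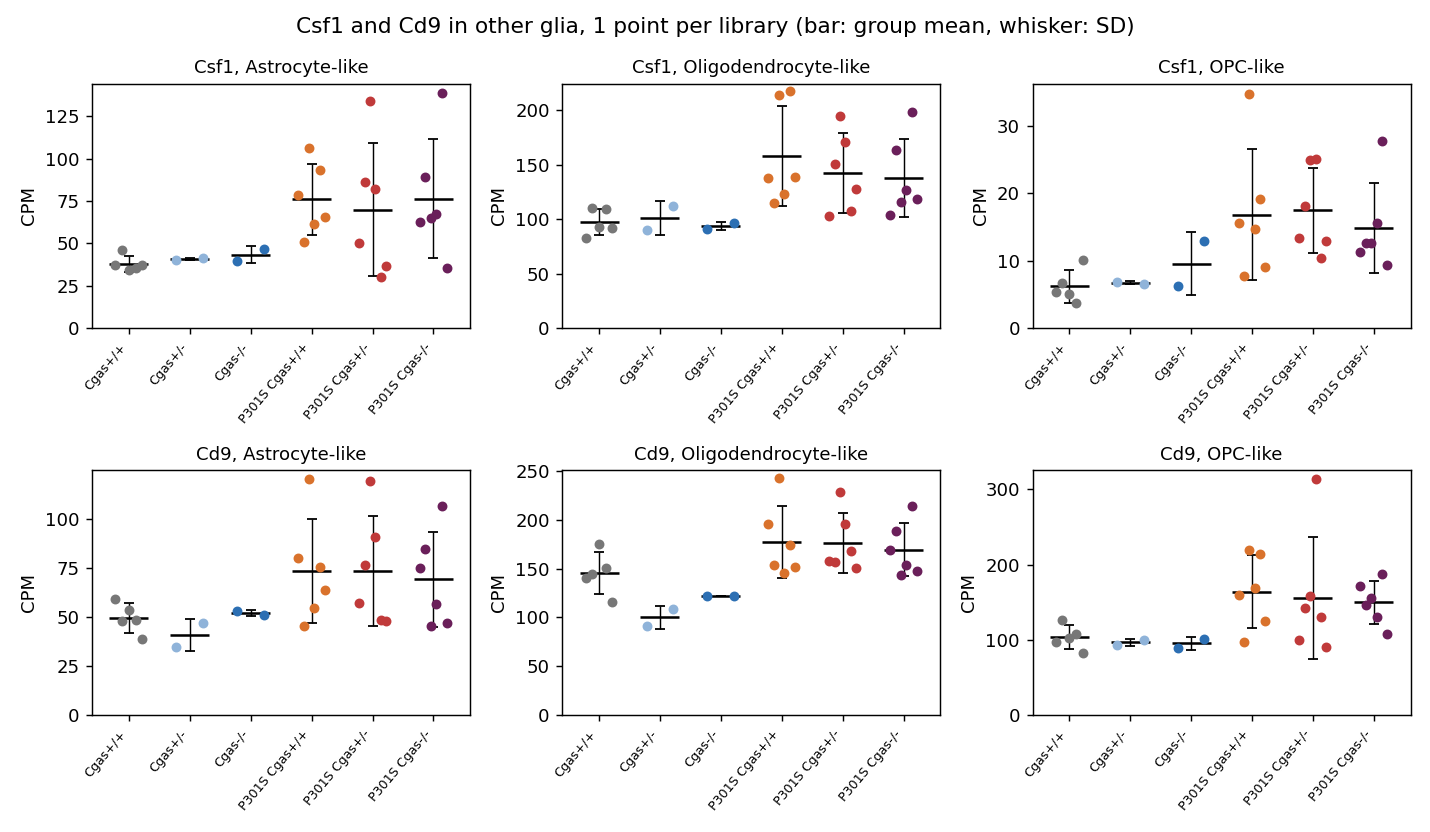
CPM of Csf1 (top) and Cd9 (bottom) in astrocyte-like, oligodendrocyte-like and OPC-like nuclei, 1 point per library, with group means (bars) and SDs (whiskers). P301S groups have higher means and a wider spread than tau-free groups in each panel, and the ranges of the 3 P301S groups overlap.

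Neurons gave no called member. In inhibitory neuron-like nuclei, where 0.0361% of 13862 genes were called, Igf1 had 115 ± 19.9 CPM in tau-free and 136 ± 33.6 CPM in P301S libraries (log2 fold change 0.12, SE 0.15, adjusted p = 0.9998, edgeR). In excitatory neuron-like nuclei, where 2.49% of 17527 genes were called, Csf1 had 5.98 ± 2.08 and 6.14 ± 2.32 CPM (-0.09, SE 0.25, adjusted p = 0.905). Between P301S Cgas-/- and P301S Cgas+/+ mice, Csf1 differed by -0.04 (SE 0.29) in astrocyte-like, -0.21 (SE 0.20) in oligodendrocyte-like and -0.15 (SE 0.31) in OPC-like nuclei on the log2 scale.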

How the data were processed

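Nuclei had been isolated from frozen hippocampi, sorted by DAPI and run on 10x Chromium 3' v3. The deposited values are raw UMI counts. The authors ran Cell Ranger to make them (3.1.0 in the submitters' processing notes, 3.0.2 or 3.1.0 in the file headers) on mm10, counting pre-mRNA reads. The annotation release is not given in the sources used here, and positions came from GENCODE vM21. The age of the mice comes from the study's text, and the groups and sex from the labels.

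Only nuclei that had between 200 and 4000 genes and a mitochondrial share no higher than 5% of UMIs entered, and the top doublet scores were removed at 0.8% per 1000 barcodes. Clusters (Leiden, igraph 0.11.9, pynndescent 0.6.0) were made without the 10 genes and related lists and were named from marker lists. UMIs were summed per mouse and class. In R 4.3.3, edgeR 4.0.16 tested these sums (robust quasi-likelihood fit, TMM scaling, genes kept by filterByExpr, sex as covariate). The tau, deletion and heterozygous comparisons used 23 mice of 4 groups and the others all 27 mice, or the 18 P301S mice for sex. Adjusted p under 0.05 is a call, Benjamini-Hochberg over all genes tested. The study tested nuclei with MAST, so replication here differs. DESeq2 1.42.0 and other settings were alternatives. Members, lists and tests were chosen with earlier results of these data known. Named genes are the 10 members, in classes with a mean of at least 5 CPM, though not every such class is given. The 3 genes of smallest unadjusted p of each further list were named too, and P2ry12 and Tmem119 as known homeostatic genes. Steps were tested on simulated data. For the edgeR fit these had less spread between libraries than the members had in P301S mice, so that test does not cover the members. Intervals are 95% and, like the limit of 3 counts for a count of 0, cover counting error only. Each library is 1 mouse.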

Additional observations from a re-analysis of the deposited data

Results flagged for a closer look

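In 12 of 86 sets of a gene, a class and a group of 5 or 6 libraries, the highest library stood far from the nearest other one (Dixon's test at 95%). For normally distributed values chance flags about 1 in 20 groups. Several members were at 0 in many libraries, so nothing is read from the 12 against that rate. In microglia-like nuclei these were Atp6v0d2 in P301S Cgas+/+ 3 (196.9 CPM, the next library 52.2) and in P301S Cgas-/- 5 (153.4 CPM, next 47.8), Gpnmb in P301S Cgas-/- 5 (136.4 CPM, next 15.6) and Lpl in P301S Cgas+/- 4 (245.1 CPM, next 84.6). The single UMIs of Cst7 in Cgas+/+ 1 (2.43 CPM) and of Spp1 in Cgas+/+ 5 (1.996 CPM) stood out because the other 4 libraries of the group were at 0.

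In astrocyte-like nuclei Gpnmb in P301S Cgas-/- 5 (41.5 CPM, next 10.6) and Csf1 in Cgas+/+ 2 (46.1 CPM, next 37.2) stood apart. In OPC-like nuclei the libraries were P301S Cgas+/+ 3 for Axl (27.8 CPM, next 18.4), P301S Cgas+/- 4 for Cd9 (313.3 CPM, next 158.2) and for Gpnmb (21.7 CPM, next 6.05), and P301S Cgas-/- 5 for Csf1 (27.8 CPM, next 15.5). P301S Cgas+/+ 3, P301S Cgas+/- 4 and P301S Cgas-/- 5 gave 9 of the 12 and also held members at the top of their groups in microglia.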

How the results depend on the processing

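No paired analysis was possible because replicate numbers were given in accession order and pair no mice. Every cause below was not tested. For tau, where edgeR called 0 genes, DESeq2 called 284, edgeR with no low-count filter 842 and with nuclei thinned to 1000 UMIs 7, with 9, 10 and 0 members. Leaving out 1 library gave 0 to 440 genes and 0 to 4 members. With no filter, 22 genes were called for deletion (1 member, Gpnmb, lower), 32 for the heterozygous comparison, 20 for Cgas-/- without P301S and 36 for the interaction. For sex, DESeq2 called 15, and leaving out 1 library gave 7 to 12. In the P301S average, which kept its direction for all 10 members under every alternative run, leaving out 1 library gave 280 to 1450 genes and 4 to 8 members. The lowest counts came without Cgas+/- 2 (280), Cgas-/- 1 (515) and Cgas-/- 2 (666). The microglia-like share differed for tau by 1.92 to 3.12 percentage points.

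Member log2 fold changes near 0 changed sign. For deletion, Cd9 was -0.0121 with no filter and -0.0064 by the marker rule. For the heterozygous comparison, fitting only its groups gave Lpl 0.0274, Csf1 0.0484, Cd9 0.0184 and Atp6v0d2 0.178. The marker rule gave Lpl 0.0120, Csf1 0.0395 and Cd9 0.0066, thinning gave Gpnmb 0.0433, Csf1 0.103, Cd9 0.0177 and Atp6v0d2 0.0600, and no sex covariate gave Csf1 0.0022. Leaving out 1 library moved deletion values from -0.59 to 0.17 for Itgax, -0.35 to 0.66 for Lpl, -0.63 to 0.74 for Spp1, -0.21 to 0.42 for Csf1, -0.56 to 0.39 for Igf1, -0.52 to 0.23 for Axl, -0.17 to 0.22 for Cd9 and -1.88 to 0.44 for Atp6v0d2, each upper end being without P301S Cgas+/+ 3. Heterozygous values moved from -1.24 to 0.20 for Itgax, -0.17 to 0.74 for Cst7, -1.22 to 0.85 for Lpl, -1.25 to 0.71 for Gpnmb, -1.94 to 0.58 for Spp1, -0.75 to 0.33 for Csf1, -0.31 to 1.33 for Igf1, -1.20 to 0.0634 for Axl, -0.40 to 0.20 for Cd9 and -0.88 to 1.05 for Atp6v0d2, the lower end without P301S Cgas+/- 4. Csf1 in excitatory neuron-like nuclei ran from -0.22 to 0.0431. Depth limits Cst7, Spp1, Gpnmb and Atp6v0d2, which had 0 or 1 UMI in each tau-free library.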
